A study of Mus musculus with 6 samples.

Results

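Genes whose symbols mark them as cyclins, cyclin-dependent kinases, replication and mitosis genes were followed in mouse CD4+ T cells exposed to tunicamycin. The genes were chosen by symbol alone: names starting in Ccn, Cdk, Cdc, Mcm, Kif, Cenp, E2f, Aurk, Bub, Plk or Orc, without Ccng1 and without pseudogene symbols. The rule found 56 genes among the 13685 rows of the count table, all annotated as protein-coding. The rule selects by name, and several of these genes work mainly or in part outside the cell cycle. Cdk10 and Cdk13 belong to transcription, as does Cdk7, which also activates other cyclin-dependent kinases. Cdc40 belongs to splicing and the Cdc42 effectors to the actin cytoskeleton. The 56 are therefore described by role.

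RNA was sequenced from WT C57BL/6 CD4+ T cells of spleen and mesenteric lymph node, with 3 libraries of tunicamycin-treated cells and 3 of vehicle-treated cells. Per the labels' protocols, the cells were CD25- (non-Treg) T cells, cultured for 4 h at 1000000 cells per well. The tunicamycin group received 0.15 µg/mL of the drug, which blocks N-linked glycosylation in the endoplasmic reticulum and thereby provokes the unfolded protein response, and the controls, titled as having no treatment, are described as vehicle controls. Libraries within a group are technical replicates by their titles, with no number, age or sex of mice given, so each p-value reflects library-to-library spread alone.

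The summed counts of the rows were 10584276, 11211270 and 10868816 in tunicamycin replicates 1 to 3, against 7412151, 7618385 and 9495725 in vehicle replicates 1 to 3. These are sums over part of the transcriptome, since the TPM of the rows added up to between 319120 and 332870 per library. Libraries of a group differed by more than sampling noise, with a chi-square per degree of freedom of 15.1 to 34.1 between them. The 5 T cell markers with a row (Ccr7, Cd3d, Cd3e, Cd5, Il7r) summed to 2405 to 2496 TPM in tunicamycin libraries, against 2398 to 2541 TPM in vehicle libraries. Cd4 was not analysed here. Il2ra, which encodes CD25, was at 7.74 to 14.1 TPM in tunicamycin libraries, against 6.87 to 8.41 TPM in vehicle libraries. The plasma cell markers Igha, Jchain and Mzb1 summed to 26.1 to 191 TPM in tunicamycin libraries, against 21.4 to 183 TPM in vehicle libraries, with replicate 2 the highest in both groups. The NK cell markers Gzma, Ncr1 and Prf1 summed to 9.82 to 14.6 TPM in tunicamycin libraries, against 8.23 to 10.6 TPM in vehicle libraries. The CD8 T cell marker Cd8b1 was at 10.5 to 11.9 TPM in tunicamycin libraries, against 9.47 to 10.8 TPM in vehicle libraries. The macrophage marker Lyz2 was at 3.55 to 10.4 TPM in tunicamycin libraries, against 2.94 to 8.52 TPM in vehicle libraries. Of the neutrophil markers, Ly6g had no count and Retnlg reached 0.296 TPM in tunicamycin libraries and 0.116 TPM in vehicle libraries. The part of these other cell types in the results below was not tested.

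A resting T cell sits outside the cycle until its antigen receptor and costimulatory receptors are engaged. D-type cyclins with CDK4 or CDK6 then inactivate the retinoblastoma protein, which frees E2F factors to switch on replication genes, and the MCM helicase is loaded onto origins. Genes for mitosis follow later. Many have promoters with NF-Y (CCAAT) boxes and a cell cycle homology region (CHR), which the repressive DREAM complex binds in resting cells. In bulk RNA, a lower transcript level from fewer cycling cells and one from less RNA per cell cannot be told apart.

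Mean TPM of the members ran from 0 to 71.1. Of the 56 genes, 6 had no count in any library (Ccna1, Ccnb1ip1, Cdc42ep5, Cdkl1, Kif2b and Kif28) and 40 had counts in every library. A mean of at least 1 TPM over the 6 libraries was reached by 32 genes, of at least 10 TPM by 18 and of at least 50 TPM by 3. The 3 were Cdk13, an RNA polymerase II kinase, Ccny, a membrane-bound cyclin, and Bub3, a spindle checkpoint protein. Together the 56 genes took 0.592 to 0.599% of counts in tunicamycin libraries, against 0.570 to 0.584% in vehicle libraries. These shares are of totals not scaled for library composition. In edgeR without that scaling, the median log2 fold change was 0.066 for the 41 members tested and 0.043 for all 3613 genes tested. With TMM scaling the medians were 0.017 and 0.00070. The cause of the gap in shares was not tested.

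Which cell cycle genes can be seen here depends on which have a row. Of 206 protein-coding symbols of the GENCODE M21 annotation that match the rule, 56 had one. A row was present for 88.9% of matching genes with 1 annotated transcript, for 33.0% of those with 2 to 5 and for 15.5% of those with 6 or more. Over all protein-coding genes the shares were 76.0%, 41.5% and 9.18%. Genes such as Cdk1, Cdk4, Ccnd2 and Ccnd3 were not analysed here. In the annotation 32 of the 56 genes overlap another gene, and reads of overlapping genes may be shared between them.

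**Figure D1:**
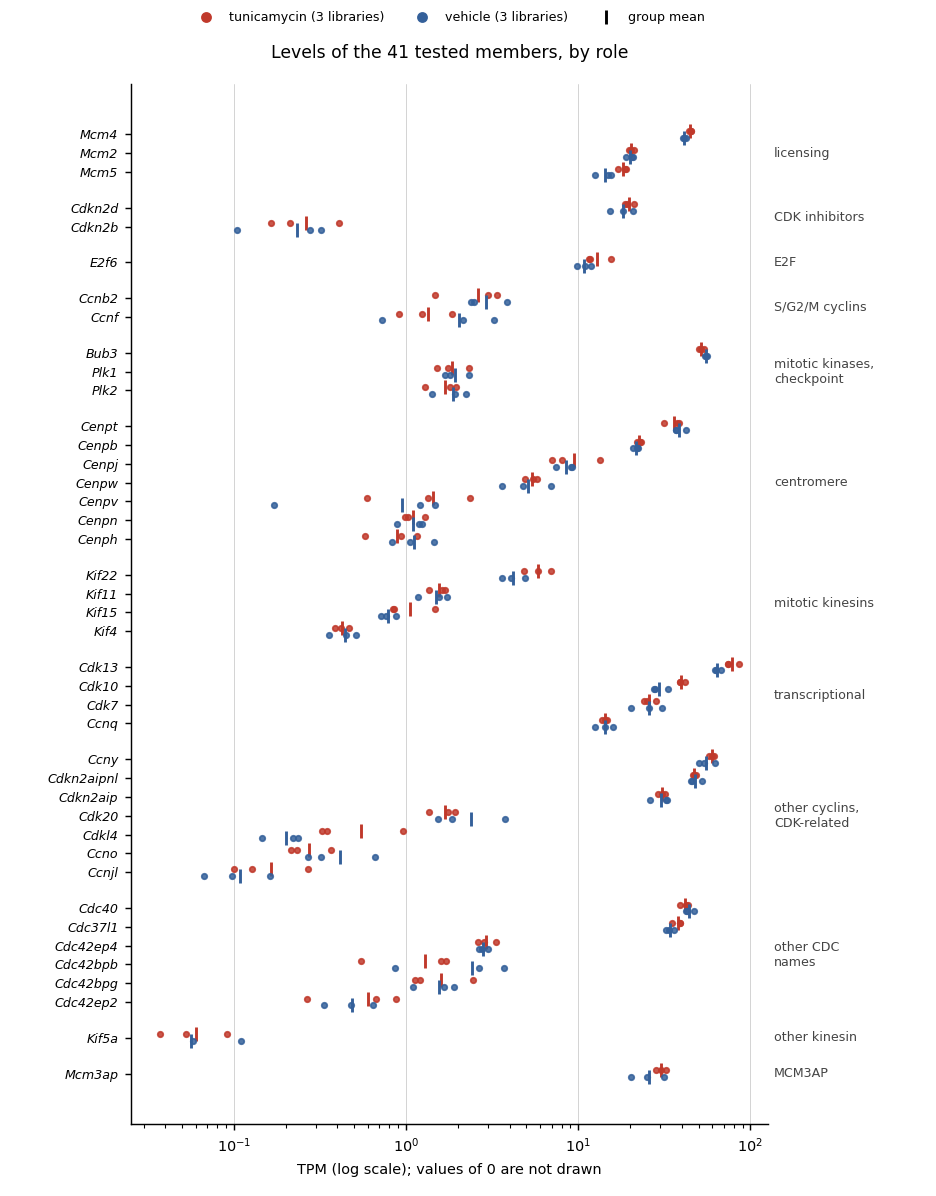
TPM (log axis) of the 41 members with enough counts to be tested, by role, with 1 point per library, tunicamycin above vehicle in each row, and a tick at each group mean. The replication helicase genes and the transcription kinases lie above 10 TPM, while cyclins of S, G2 and M phase and, by their means, mitotic kinesins lie below 6 TPM.

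Exposure to tunicamycin for 4 h moved none of the tested members past the threshold. Counts were tested with edgeR's quasi-likelihood F test over all 3613 genes that passed a filter on low counts, at a Benjamini-Hochberg adjusted p of 0.05, and 41 of the 56 members passed that filter. By adjusted p, 0 members were higher in tunicamycin, where 0.0554% of all genes tested were. Likewise 0 members were lower, where 0.0277% of all genes tested were. DESeq2 and limma on TPM also called 0 members in either direction, though DESeq2 gave no adjusted p for 33 of the 41.

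By unadjusted edgeR p under 0.05, 3 members were higher (Cdk10, Cdkl4 and Mcm5), a share of 7.32% of the members against a background of 3.24% of all genes. By the same measure 0 members were lower, against a background of 3.18%. The split was 4 higher and 1 lower with effective-length offsets, and the same with no filter on low counts, where 50 members were tested. Over the fits that left out 1 library, 1 to 5 members were higher and 0 to 1 lower. The share of all genes at this p is not given for these alternative fits, so their splits are not set against a background. Values scaled to sequencing depth as CPM did not overlap between the groups for 5 members that were higher in tunicamycin (Cdk10, Cdkl4, Mcm5, Kif15 and Kif4), 12.2% of members against 6.62% of all genes. They did not overlap for 2 members that were lower (Cdc40 and Cenph), 4.88% of members against 5.95% of all genes.

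The members lay on both sides of no change. The median log2 fold change of the 41 was 0.02, with quartiles of -0.10 and 0.18, and the median of all 3613 genes was 0.00, with quartiles of -0.11 and 0.15. Above 0 lay 22 members, 53.7% against 50.1% of all genes.

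How small a change could be seen depended on abundance. Among the 22 members averaging 5 log2 CPM or more, the half-width of the 95% interval of the log2 fold change had a median of 0.17 and a range of 0.11 to 0.42. For all 22 of these the interval lay within a 2-fold change both ways, and for 21 within 1.5-fold. Over all 41 the counts were 31 within 2-fold (75.6%, against 64.6% of all genes) and 22 within 1.5-fold (53.7%, against 52.8%). Among the 19 less abundant members the median half-width was 0.85, and the interval lay within 2-fold for 9 and within 1.5-fold for 1. Most of the mitotic members belong to that less abundant set, so changes of under 2-fold were often not detectable there. The intervals are not adjusted for the number of genes tested, so larger changes could also miss the threshold. Cdkl4, in the less abundant set, had a log2 fold change of 1.51 at an edgeR adjusted p of 0.68.

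**Figure D2:**
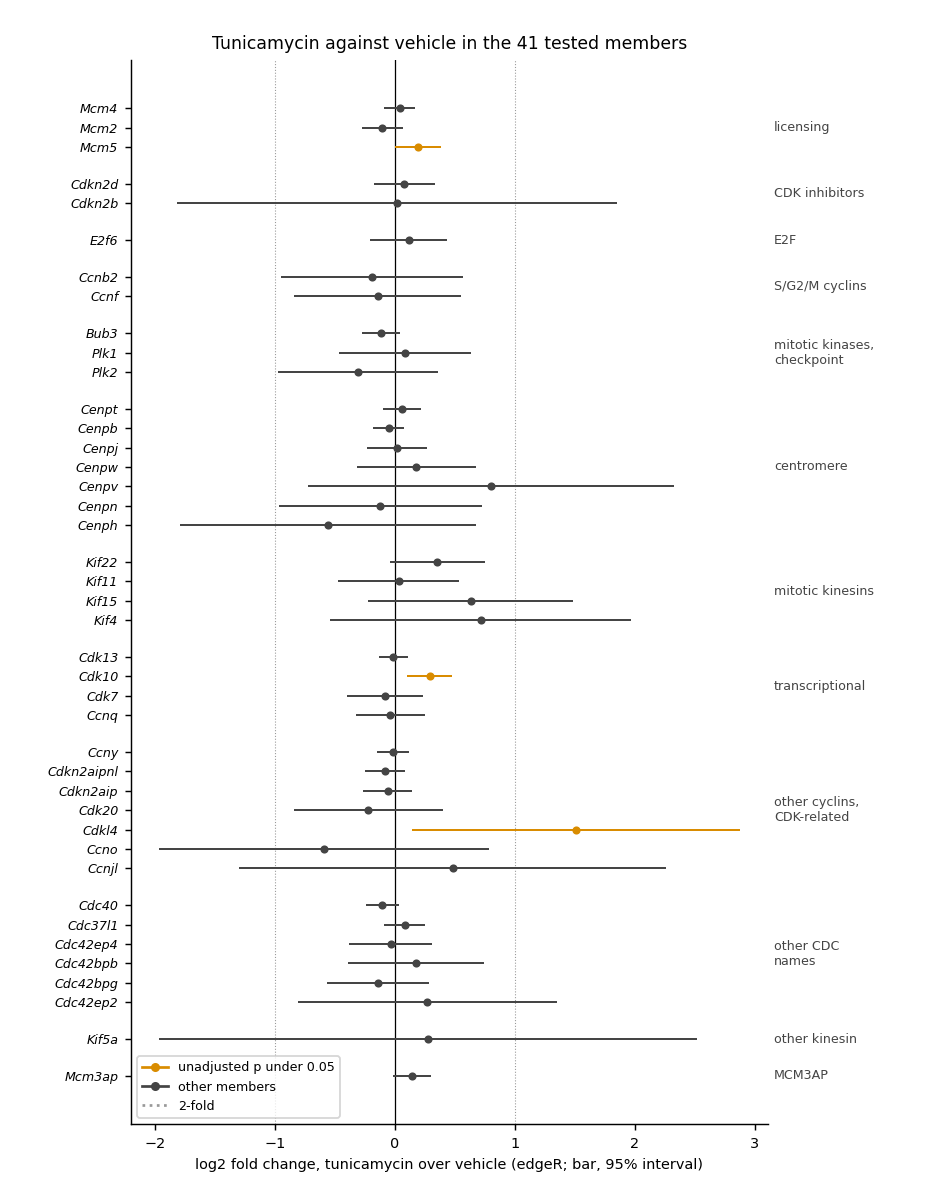
Log2 fold change of tunicamycin over vehicle for each tested member by role, from edgeR, with 95% intervals as bars, 2-fold changes as dotted lines and unadjusted p under 0.05 in orange. Intervals widen from the abundant helicase and transcription genes to the scarce kinesins and cyclins, and the intervals of Cdk10 (0.11 to 0.46), Mcm5 (0.01 to 0.38) and Cdkl4 (0.15 to 2.87) lie above 0.

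Replication licensing was represented by Mcm2, Mcm4 and Mcm5, subunits of the helicase that unwinds DNA at replication origins. All 3 were among the more abundant members. Mcm4 had 45.4, 45.2 and 44.0 TPM in tunicamycin libraries, against 40.8, 42.1 and 41.3 TPM in vehicle libraries. In TPM its groups did not overlap, whereas its CPM of 465, 445 and 455 in tunicamycin libraries overlapped the 430, 447 and 453 CPM of vehicle libraries. For Mcm4 the log2 fold change from counts was 0.04, with a 95% interval of -0.08 to 0.16.

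Mcm2 had 286, 258 and 265 CPM in tunicamycin libraries, against 267, 299 and 304 CPM in vehicle libraries. Its log2 fold change was -0.10 (interval -0.26 to 0.05), and its groups overlapped. Mcm5 had 157, 164 and 165 CPM in tunicamycin libraries, against 151, 146 and 128 CPM in vehicle libraries. All 3 tunicamycin libraries lay above all 3 vehicle libraries, with vehicle replicate 3 the lowest.

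Mcm5 had a log2 fold change of 0.19 (SE 0.08, interval 0.01 to 0.38), at an edgeR unadjusted p of 0.042 and an adjusted p of 0.71 (0.37 to 1.00 over the alternatives). Without vehicle replicate 3 it was 0.12, and over the 6 fits that left out 1 library the edgeR unadjusted p ran from 0.027 to 0.17. The subunits thus had different signs in counts, 2 above 0 and 1 below, and Mcm2 turned to 0.02 in limma on log2(TPM + 1). In every library Mcm4 lay above Mcm2, by 2.02 to 2.31 times in TPM, and Mcm2 lay above Mcm5, by 1.05 to 1.64 times. The helicase subunits assemble in equal amounts as proteins, but their transcripts here were not equal.

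**Figure D3:**
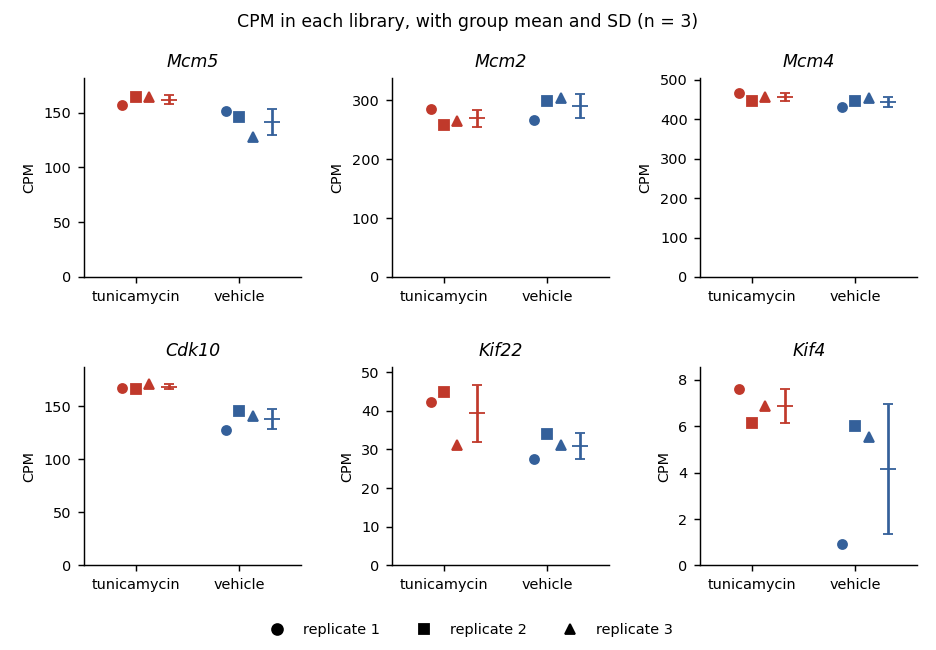
CPM of 6 members in each library, tunicamycin left and vehicle right, with the group mean and SD (n = 3) beside the points. The groups do not overlap for Mcm5, Cdk10 and Kif4, overlap for Mcm2, Mcm4 and Kif22, and Kif4 has 1 vehicle library near 0.

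The stretch before the Mcm5 start, shown because Mcm5 is the one replication gene whose groups separated in both CPM and TPM, carries the letters of an E2F-type element. It lies at chr8:75109339-75109508 on the plus strand of GRCm38.p6 (RefSeq), bases -170 to -1 from the start of transcription. Capitals mark the matches to TTTNGCGC, found on both strands and overlapping each other, and to CCAAT.
Mcm5: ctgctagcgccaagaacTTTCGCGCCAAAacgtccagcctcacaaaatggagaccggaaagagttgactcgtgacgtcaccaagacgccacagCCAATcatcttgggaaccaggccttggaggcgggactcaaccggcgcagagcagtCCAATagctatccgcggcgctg
The E2F-type matches begin 153 and 149 bases before the start. The same motif is in 1.38% of all 32851 RefSeq promoter windows, each of 300 bases, and a match is a description of letters, not evidence of binding. On GRCm38 the Mcm5 gene spans chr8:75109569-75128439, on the plus strand.

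Regulators of the G1 to S step were few. Ccnd1, which encodes cyclin D1, had 0, 0 and 0 counts in tunicamycin libraries, against 5, 4 and 0 in vehicle libraries, and was not tested. A count of 0 allows a level of up to 0.263 to 0.282 CPM in the tunicamycin libraries, covering counting error only. Cdkn2d, an inhibitor of CDK4 and CDK6, had 18.7, 21.2 and 19.2 TPM in tunicamycin libraries, against 18.3, 20.9 and 15.4 TPM in vehicle libraries. The groups overlapped, with a log2 fold change of 0.08 (interval -0.17 to 0.33).

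The related inhibitor Cdkn2b had 11, 9 and 22 counts in tunicamycin libraries, against 4, 11 and 16 in vehicle libraries. Cdkn2a, the senescence-linked locus of INK4A and ARF, had 0, 8 and 4 counts in tunicamycin libraries, against 0, 8 and 3 in vehicle libraries. E2f6, a repressive E2F without a pocket protein binding domain, had 15.6, 11.5 and 11.6 TPM in tunicamycin libraries, against 11.8, 10.9 and 9.83 TPM in vehicle libraries. Tunicamycin replicate 1 was the highest and the groups overlapped, with a log2 fold change of 0.11 (interval -0.20 to 0.42). Cdkn2d was the only one of these inhibitors above 1 TPM.

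Cyclins of the later phases were scarce. Ccnb2, a cyclin B that partners CDK1 in mitosis, had 13.5, 14.7 and 6.70 CPM in tunicamycin libraries, against 10.8, 17.5 and 11.8 CPM in vehicle libraries. Tunicamycin replicate 3 was the lowest of the 6, and the log2 fold change was -0.19 (interval -0.94 to 0.56). Ccnf, the F-box protein cyclin F, had a mean of 1.69 TPM over the 6 libraries and a log2 fold change of -0.14 (interval -0.83 to 0.54). The germline cyclin Ccna1 had no count.

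Bub3 stood far above the other checkpoint and kinase members. It had 51.6, 53.7 and 50.3 TPM in tunicamycin libraries, against 54.3, 55.1 and 56.2 TPM in vehicle libraries. In TPM every tunicamycin library lay below every vehicle library, and in CPM the groups overlapped, with 344, 331 and 329 CPM in tunicamycin libraries and 332, 370 and 388 CPM in vehicle libraries. For Bub3 the log2 fold change was -0.12 (interval -0.27 to 0.03). Bub3 was the only member lower in non-overlapping TPM, 2.44% of the members against 3.54% of all genes.

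Plk1, the polo kinase that drives mitotic entry and spindle assembly, had a mean of 1.90 TPM. Bub3 exceeded it by 23.3 to 34.0 times in each library. For Plk1 the log2 difference was 0.08 (interval -0.46 to 0.62) from counts and -0.04 in limma on log2(TPM + 1). Plk2, a stress-responsive relative, had 18.3, 11.1 and 13.1 CPM in tunicamycin libraries, against 18.5, 11.3 and 22.7 CPM in vehicle libraries. Its groups overlapped, with a log2 fold change of -0.31 (interval -0.97 to 0.35), which was -0.076 without vehicle replicate 3 and -0.54 without vehicle replicate 2. Aurkc, the germline Aurora kinase, had 1 count in all and was not tested.

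The centromere proteins spanned a wide range of levels, with Cenpt and Cenpb at the top. Cenpt, which links centromeric chromatin to the microtubule-binding NDC80 complex, had 37.6, 31.6 and 38.6 TPM in tunicamycin libraries, against 37.1, 42.04 and 36.9 TPM in vehicle libraries. The groups overlapped, with a log2 fold change of 0.06 (interval -0.10 to 0.21) from counts and -0.11 in limma on log2(TPM + 1). Cenpb, a DNA-binding protein of centromeric satellite repeats, averaged 22.2 TPM with a log2 fold change of -0.05 (interval -0.17 to 0.07). Cenpt exceeded Cenpb in TPM in all 6 libraries, by 1.39 to 1.92 times.

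Cenpj, a centriole protein rather than a centromere protein, averaged 9.01 TPM with a log2 fold change of 0.02. Cenpw, which pairs with Cenpt, averaged 5.25 TPM, well under its partner, with a log2 fold change of 0.18 (interval -0.31 to 0.67). Cenph, of the inner kinetochore, had 1.78, 2.36 and 2.35 CPM in tunicamycin libraries, against 3.90, 3.20 and 2.50 CPM in vehicle libraries. Its tunicamycin libraries were all lower in CPM, at 19 to 27 counts each, and the log2 fold change was -0.56 (interval -1.79 to 0.67). Cenpv had 2.82, 4.55 and 1.90 CPM in tunicamycin libraries, against 2.82, 1.87 and 0.654 CPM in vehicle libraries, with a log2 fold change of 0.80 (interval -0.71 to 2.32) and overlapping groups. Leaving out 1 library moved the Cenpv value to between 0.40 (without vehicle replicate 3) and 1.30 (without vehicle replicate 1).

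The mitotic kinesins, motors that build the spindle and move chromosomes, had log2 fold changes above 0 for all 4 tested members in counts, with a median of 0.49. In the edgeR fit described above, none of the 4 reached an unadjusted p under 0.05. In limma on log2(TPM + 0.1) Kif22 had a limma unadjusted p of 0.044 and an adjusted p of 0.60. In limma on TPM, as in edgeR with effective-length offsets, Kif4 lay below 0. Kif11 lay below 0 when some single libraries were left out, with a range of -0.10 to 0.15. The summed TPM of the 4 was 9.45, 9.79 and 7.50 in tunicamycin libraries, against 7.76, 6.91 and 6.01 in vehicle libraries, and the groups overlapped.

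Kif22, a chromosome-arm motor, supplied most of that sum. It had 42.2, 44.8 and 31.0 CPM in tunicamycin libraries, against 27.4, 34.0 and 31.0 CPM in vehicle libraries. Tunicamycin replicate 3 lay within the vehicle values, and the log2 fold change was 0.35 with an SE of 0.18 and an interval of -0.04 to 0.74. In TPM Kif22 had 5.83, 6.94 and 4.87 in tunicamycin libraries, against 4.88, 4.05 and 3.60 in vehicle libraries. Kif22 lay above Kif11 in every library, by 2.34 to 4.28 times in TPM.

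Kif15, a spindle motor that can back up Kif11, had 8.64, 8.84 and 6.34 CPM in tunicamycin libraries, against 5.65, 6.13 and 3.60 CPM in vehicle libraries. Its groups did not overlap in CPM, with a log2 fold change of 0.63 (interval -0.21 to 1.48). Kif11, the motor that separates spindle poles, averaged 1.52 TPM with a log2 fold change of 0.03 (interval -0.47 to 0.53).

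Kif4, a chromosome-compacting motor, gave different readings in counts and TPM. It had 81, 70 and 76 counts in tunicamycin libraries, against 7, 45 and 51 in vehicle libraries. Its TPM was 0.466, 0.386 and 0.421 in tunicamycin libraries, against 0.451, 0.359 and 0.509 in vehicle libraries. Vehicle replicate 1 had far fewer counts than the other 5 libraries but not a lower TPM, and the TPM of the groups overlapped. The log2 fold change was 0.72 (interval -0.53 to 1.96) from counts, 0.25 without vehicle replicate 1, and -0.04 in limma on log2(TPM + 0.1). The ratio of count to TPM, which tracks effective transcript length, differed by 1.20 on the log2 scale, tunicamycin minus vehicle.

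The neuronal transport kinesin Kif5a had 15, 27 and 11 counts in tunicamycin libraries, against 12, 0 and 21 in vehicle libraries. It was near the floor of the test, with an interval of -1.96 to 2.51. Cdc20b, the only member named for the anaphase-promoting complex activators, had 3 counts in all.

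Promoter letters, which the selection by symbol did not use, differed between the roles. RefSeq windows of 300 bases (250 before and 50 after the start, GRCm38.p6) were found for 49 of the 56 members, 53 windows in all. Both strands were searched for the CHR element TTTGAA and for CCAAT. Windows of the licensing, S, G2 and M cyclin, mitotic kinase, centromere and mitotic kinesin roles (22 windows, 21 genes) held TTTGAA in 54.5%, against 19.4% of the 31 windows of the other roles and 17.9% of all 32851 windows. They held CCAAT in 72.7%, against 32.3% in the other roles and 37.4% of all windows. Both stood together in 50.0%, against 6.45% in the other roles and 6.95% of all windows. Bub3 has 2 windows, which overlap and hold the same matches.

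The grouping by role was made with results of these data known, and no test was run on these shares. The window of Ccnb2 and that of Kif11 are shown as examples in which both elements lie close to the start, in genes with means of 2.76 and 1.52 TPM. Genes of these roles with both elements were not all scarce. Bub3 has a CHR match beginning at -43 and CCAAT matches beginning at -74 and -32, at a mean of 53.5 TPM. Mcm2, with both elements, averaged 20.2 TPM. The others with both, Ccnb2, Ccnf, Cenpn, Cenpw, Plk1, Kif4, Kif11 and Kif22, averaged 0.432 to 5.25 TPM. Whether the letters go with the level was not tested. Ccnb2 is given from chr9:70421535-70421654 on the minus strand and Kif11 from chr19:37376282-37376401 on the plus strand, each covering bases -100 to +20. Capitals mark CCAAT or its reverse complement, and TTTGAA or its reverse complement.
Ccnb2: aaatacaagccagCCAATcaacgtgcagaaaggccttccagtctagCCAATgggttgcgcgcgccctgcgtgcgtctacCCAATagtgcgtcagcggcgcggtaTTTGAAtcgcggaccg
Kif11: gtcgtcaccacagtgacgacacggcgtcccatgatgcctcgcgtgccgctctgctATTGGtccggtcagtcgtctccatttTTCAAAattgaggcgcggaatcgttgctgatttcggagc
In Ccnb2, 3 CCAAT boxes begin at -87, -54 and -21, and a TTTGAA begins at +5, while another, beginning at -167, lies outside the stretch shown. Kif11 has a single CCAAT match, beginning at -45, followed by a CHR match beginning at -19.

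**Figure D4:**
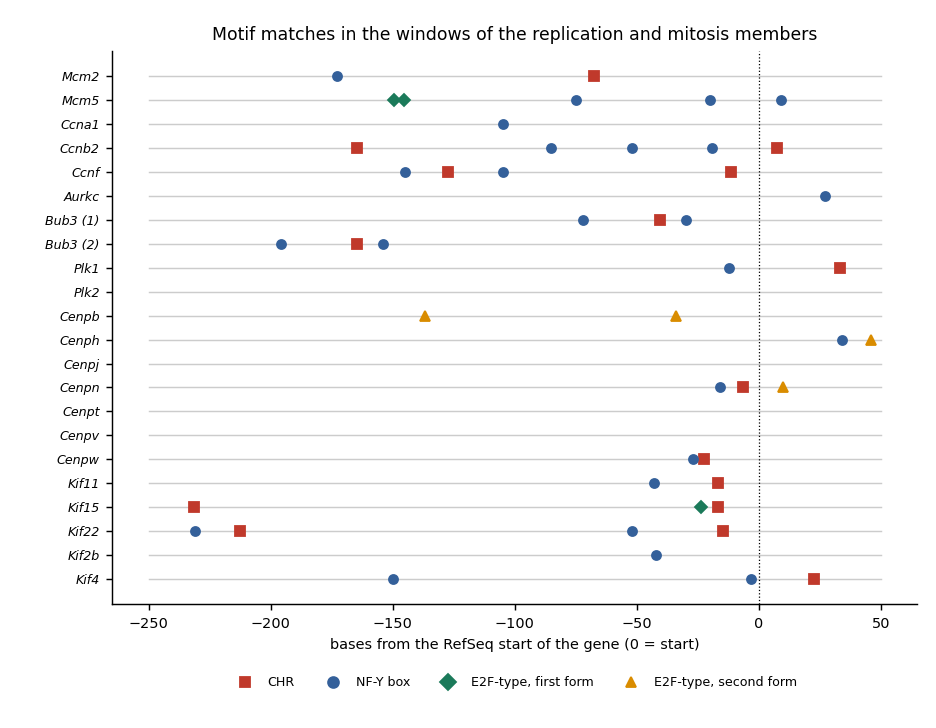
Positions of CHR, NF-Y box and E2F-type matches in promoter windows, in bases from the start of transcription (x axis), with 1 row per window of the replication and mitosis roles. CHR and NF-Y box matches stand together in 50.0% of the windows of replication and mitosis roles.

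Transcription-linked kinases and cyclins held the member with the lowest p. Cdk10, a kinase that partners cyclin M (Ccnq), had 167, 166 and 171 CPM in tunicamycin libraries, against 127, 146 and 141 CPM in vehicle libraries. It had 41.4, 38.9 and 38.8 TPM in tunicamycin libraries, against 27.7, 28.1 and 33.1 TPM in vehicle libraries. The groups did not overlap in either unit. The log2 fold change of Cdk10 was 0.29 (SE 0.08, interval 0.11 to 0.46), at an edgeR unadjusted p of 0.0039 and an adjusted p of 0.40 (0.11 to 1.00 over the alternatives).

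Over the alternatives the log2 fold change of Cdk10 stayed between 0.23 and 0.43. DESeq2 gave no adjusted p for Cdk10, so the range of adjusted p leaves that fit out. Cdk10 has 12 annotated transcripts and spans chr8:123224842-123232250 on the plus strand of GRCm38. Gm20388 and Gm45842 on the same strand and Spata2l on the other strand overlap it in the annotation, and how the counting split such reads is not given in the sources used here. Its partner Ccnq averaged 14.3 TPM, with a log2 fold change of -0.04 (interval -0.32 to 0.24).

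The Cdk10 promoter is shown for contrast with those of the replication and mitosis genes. The stretch lies at chr8:123224591-123224840 on the plus strand, bases -250 to -1, and capitals mark CCAAT or its reverse complement.
Cdk10: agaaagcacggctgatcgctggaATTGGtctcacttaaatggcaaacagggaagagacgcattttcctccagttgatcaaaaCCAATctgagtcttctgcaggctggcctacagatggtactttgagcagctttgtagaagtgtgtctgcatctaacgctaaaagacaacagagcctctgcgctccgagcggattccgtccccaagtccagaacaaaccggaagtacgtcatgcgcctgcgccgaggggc
Its 2 CCAAT matches begin at -227 and -168, farther from the start than in Ccnb2 or Kif11. Neither TTTGAA nor either E2F-type motif (TTTNGCGC, or GCGGGAA, which is in 4.60% of all windows) matched in its window, which says only that these letters are not in it.

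Cdk13, which phosphorylates the tail of RNA polymerase II with cyclin K, was the most abundant member in TPM. It had 74.0, 85.4 and 74.1 TPM in tunicamycin libraries, against 67.8, 62.0 and 63.4 TPM in vehicle libraries, and the groups did not overlap. In CPM it had 960, 938 and 948 in tunicamycin libraries, against 957, 930 and 987 in vehicle libraries, and the groups overlapped. The log2 fold change was -0.01 (interval -0.12 to 0.10) from counts and 0.27 in limma on log2(TPM + 0.1), at a limma unadjusted p of 0.011 and an adjusted p of 0.41. Its ratio of count to TPM differed by -0.24 on the log2 scale, tunicamycin minus vehicle. Cdk7, the kinase of TFIIH that also activates other cyclin-dependent kinases, averaged 25.7 TPM with a log2 fold change of -0.08 (interval -0.39 to 0.23).

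**Figure D5:**
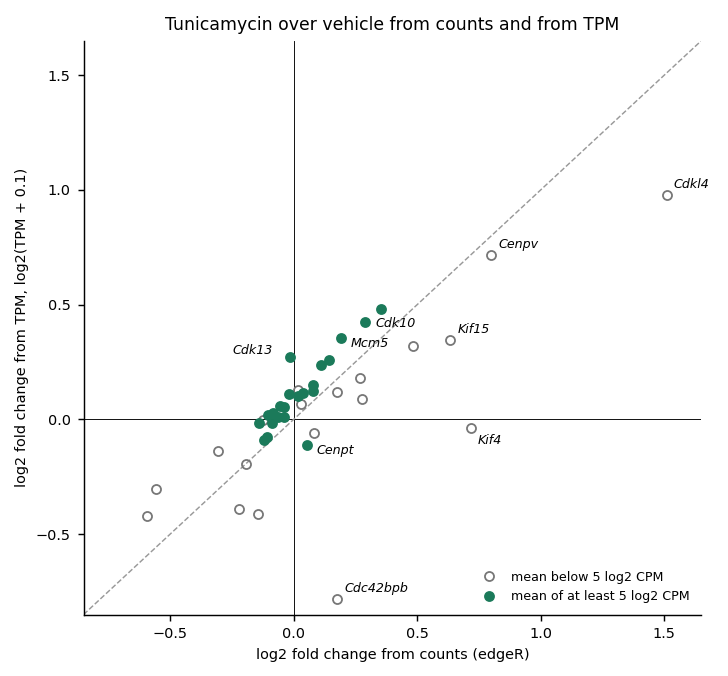
Log2 fold change of tunicamycin over vehicle from limma on log2(TPM + 0.1) against that from edgeR on counts, with 1 point per tested member, filled at a mean of 5 log2 CPM or more, and the diagonal dashed. Off the diagonal lie Kif4 near 0 in TPM, Cdk13 near 0 in counts, and Cdc42bpb at 0.18 in counts and -0.78 in TPM.

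Counts and TPM differed in sign for 12 of the 41 tested members, 9 of them averaging 5 log2 CPM or more. The median log2 fold change of all 3613 genes was 0.064 in limma on log2(TPM + 0.1) and 0.00070 in counts. The signs in the 2 units are therefore not read against the same baseline. The share of all genes that differ in sign is not given. In limma on log2(TPM + 0.1), 4 members were higher at an unadjusted p under 0.05 (Cdk10, Cdk13, Mcm5 and Kif22), 9.76% of members against 5.7% of all genes, and 0 were lower, against 2.19% of all genes. The groups did not overlap in TPM for 5 members that were higher (Mcm4, Mcm5, Cdkl4, Cdk13 and Cdk10), 12.2% of members against 10.4% of all genes. Cdk10, Mcm5 and Cdkl4 separated in both units. Cdc42bpb, a kinase effector of Cdc42 that was picked after its values were seen, differed most between the log2 fold changes of counts and of log2(TPM + 0.1). By the ratio of count to TPM, Kif4 differed more between the groups, at 1.20 on the log2 scale against 1.05 for Cdc42bpb. Cdc42bpb had 222, 298 and 171 counts in tunicamycin libraries, against 152, 159 and 126 in vehicle libraries. Its TPM was 1.59, 1.71 and 0.545 in tunicamycin libraries, against 3.70, 2.66 and 0.860 in vehicle libraries, with overlapping groups.

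Cdkl4, a little-studied kinase of the CDK-like family, had the largest log2 fold change of the tested members, 1.51 (SE 0.62). It had 85, 30 and 32 counts in tunicamycin libraries, against 9, 14 and 15 in vehicle libraries. All tunicamycin libraries were higher, and tunicamycin replicate 1 was far above the others. The edgeR unadjusted p was 0.031 and the adjusted p was 0.68 (0.53 to 1.00 over the alternatives). Without tunicamycin replicate 1 the log2 fold change of Cdkl4 was 0.81, at an edgeR unadjusted p of 0.31. DESeq2 gave no adjusted p for Cdkl4 either. AC131712.1 overlaps the gene on the other strand in the annotation.

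The remaining cyclin and CDK-related names held abundant genes with narrow intervals. Ccny had 57.6, 61.4 and 59.9 TPM in tunicamycin libraries, against 50.4, 53.6 and 62.3 TPM in vehicle libraries. The groups overlapped and the log2 fold change was -0.02 (interval -0.14 to 0.11), with the sign turned in TPM. Cdkn2aipnl and Cdkn2aip, relatives named after an ARF-binding protein, averaged 47.5 and 30.5 TPM, with log2 fold changes of -0.09 (interval -0.25 to 0.07) and -0.06 (interval -0.26 to 0.14).

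Cdk20 had 11.7, 11.6 and 12.2 CPM in tunicamycin libraries, against 12.5, 18.3 and 10.7 CPM in vehicle libraries. Its vehicle replicate 2 stood above the other 5 libraries, and the log2 fold change was -0.22 (interval -0.84 to 0.39). Ccno, a cyclin known from multiciliated cells, had 20, 17 and 27 counts in tunicamycin libraries, against 34, 17 and 18 in vehicle libraries, and a log2 fold change of -0.59 (interval -1.96 to 0.78), which was -0.13 without vehicle replicate 1.

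Members that carry CDC in their names but serve other processes also stayed within narrow bounds where they were abundant. Cdc40, a splicing factor, had 378, 380.5 and 354 CPM in tunicamycin libraries, against 411, 393 and 393 CPM in vehicle libraries. Its tunicamycin libraries were all lower in CPM, with a log2 fold change of -0.11 (interval -0.23 to 0.02) at an edgeR unadjusted p of 0.096. In TPM it had 42.2, 43.3 and 39.2 in tunicamycin libraries, against 46.8, 42.7 and 42.2 in vehicle libraries, and the groups overlapped.

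Cdc37l1, a relative of the HSP90 co-chaperone Cdc37, averaged 35.9 TPM with a log2 fold change of 0.08 (interval -0.08 to 0.24). Cdc42ep4, an effector of the GTPase Cdc42, averaged 2.86 TPM with a log2 fold change of -0.04 (interval -0.37 to 0.30). Mcm3ap, an mRNA export factor named for binding MCM3, had 535, 541 and 602 CPM in tunicamycin libraries, against 503, 542 and 475 CPM in vehicle libraries. Its groups overlapped, with a log2 fold change of 0.14 (interval -0.01 to 0.29) at an edgeR unadjusted p of 0.059.

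Not tested were 15 members, the 6 without a count and 9 with at most 23 counts over the 6 libraries. Closest below the filter were Cdkn2a with 23 counts in all and Kif27 with 12. Closest above it were Cdkn2b with 73, Ccnjl with 78 and Kif5a with 86. Ccnd1 had 9 counts in all, Kif26a 7, Cdk5r2 3, Cdc42ep1 2, and Cdc34b about 1. The tested members not yet given, Cenpn, Cdc42bpg, Cdc42ep2 and Ccnjl, had log2 fold changes of -0.12, -0.14, 0.27 and 0.48, and their groups overlapped in CPM.

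Other cell cycle genes, from lists of genes outside the symbol rule, gave the same count of calls. Of 22 tested genes of the RB and quiescence, DNA replication, checkpoint and ubiquitin lists, 0 passed the edgeR threshold in either direction. Of all genes tested, 0.0554% passed it higher and 0.0277% lower. By unadjusted edgeR p under 0.05 the 22 also held 0, where 3.24% of all genes were higher and 3.18% lower. Their median log2 fold change was -0.02, with a range of -0.20 to 0.26. Klf2, a transcription factor that keeps T cells at rest, had 461 ± 20.03 TPM in tunicamycin libraries, against 407 ± 29.4 TPM in vehicle libraries (SD, n = 3 each), with a log2 fold change of -0.05 from counts. In limma on log2(TPM + 1) that value was 0.18.

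The antiproliferative Btg1 had 444 ± 24.0 TPM in tunicamycin libraries, against 426 ± 9.38 TPM in vehicle libraries (SD, n = 3 each), and a log2 fold change of -0.07, which was 0.06 in limma on log2(TPM + 1). Its relatives Btg2 and Tob1 had log2 fold changes of -0.05 and -0.13. Tob1 had 582, 611 and 630.7 CPM in tunicamycin libraries, against 631.02, 646 and 721 CPM in vehicle libraries, without overlap. Its interval was -0.27 to 0.01, at an edgeR unadjusted p of 0.060 and an adjusted p of 0.79. Pkmyt1, picked after its values were seen, was higher without overlap in CPM, with a log2 fold change of 0.19. Of all genes, 6.62% were higher and 5.95% lower without overlap. Rb1, the retinoblastoma gene, had 56.6 ± 2.47 TPM in tunicamycin libraries, against 53.4 ± 2.25 TPM in vehicle libraries (SD, n = 3 each), with a log2 fold change of -0.02. Ube2s, which extends ubiquitin chains for the anaphase-promoting complex, had a log2 fold change of -0.09. Mki67, the proliferation antigen Ki-67, was chosen after its values were seen and had 1.69 ± 0.570 TPM in tunicamycin libraries, against 1.77 ± 0.347 TPM in vehicle libraries (SD, n = 3 each). Its log2 fold change was 0.04, with a wide interval of -0.96 to 1.04.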

How the data were processed

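The authors deposited estimated counts per gene, partly fractional and not scaled to depth, and TPM for the same rows. Per the submitters' processing notes, Salmon, bcl2fastq and DESeq2 were used with the build GRCm39, at versions not listed there; the transcript annotation is not given in the sources used here. Symbols and positions came from GENCODE M21 (GRCm38), matched by Ensembl ID for 13627 rows, and coordinates were not converted.

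The members and lists were chosen with earlier results of these data known. Deposited counts, rounded to whole numbers, went into edgeR 4.0.16 (R 4.3.3): filterByExpr, TMM, a 2-sided robust quasi-likelihood F test over 3613 genes, Benjamini-Hochberg adjustment, threshold 0.05. CPM use TMM-scaled library sizes. Each interval covers 95%, from the fit's standard error. Fold changes in TPM are on the log2(TPM + pseudocount) scale from limma 3.58.1, which understates changes of low genes. The floor for a count of 0 is 3 counts. The fit was tested on simulated counts.

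Genes were named by rule: in each role the 3 tested members highest in mean TPM (with none tested, the 1 with the most counts), the 4 largest fold changes each way at a mean of at least 1 log2 CPM, members next to the filter, and the 6 most abundant genes of the other lists. Further members are named where a count or a promoter turns on them, after their values were seen. Alternatives were other scalings, no filter, DESeq2 1.42.0, limma with pseudocounts of 1 and 0.1 TPM, library sizes without the 20 most counted rows, effective-length offsets from the ratio of count to TPM, a replicate block, and leaving out each library.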

Additional observations from a re-analysis of the deposited data

How the results depend on the processing

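Under each of the 16 alternatives 0 members were called higher and 0 lower, though in DESeq2 33 of the 41 had no adjusted p and could not be called. Genes called higher over the whole table numbered 2, and 10 without a filter on low counts, 4 in DESeq2, 1 in limma on log2(TPM + 1) and 1 to 4 when single libraries were left out. Genes called lower numbered 1, and 2 with DESeq2 size factors, 6 without a filter, 16 in DESeq2, 0 with no composition factor, in both limma fits and with effective-length offsets, and 0 to 1 when single libraries were left out. The members' median log2 fold change of 0.017 was 0.066 with no composition factor (all genes 0.043), 0.060 in limma on log2(TPM + 0.1) (all genes 0.064), 0.00064 with effective-length offsets, and -0.030 to 0.047 when single libraries were left out. The cause of these differences was not tested.

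The replicate numbers were not taken to pair the libraries. Deviations of same-numbered libraries correlated at 0.037, 0.19 and 0.11, over 0.1 in 2 of 3 pairs, although each of the 6 libraries was closest to the one of the same number. With the replicate block, 14 genes were called higher and 22 lower, with a member median of 0.038, and with block and effective-length offsets 3 and 3. At an edgeR unadjusted p under 0.05, block and offsets together gave 4 members higher and 3 lower. The share of all genes is not given for that fit. The plasma cell markers followed the numbers, at 102, 191 and 26.1 TPM in tunicamycin replicates 1 to 3 and 92.8, 183 and 21.4 TPM in vehicle replicates 1 to 3. The lowest adjusted p of a member over all settings was 0.11, for Cdk10 in edgeR with the block.

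Of 656 alternative values of 41 named genes, 582 kept their sign, 74 in 23 genes did not, and 0 passed the threshold. Values from DESeq2 without an adjusted p are counted as not passing. Without a composition factor the sign turned for Ccny (0.024), Cdc42ep4 (0.0065), Cdk13 (0.028) and Rb1 (0.027). In limma with pseudocounts of 1 and 0.1 it turned for Btg1 (0.058 and 0.059), Ccny (0.11), Cdc42ep4 (0.042 and 0.053), Cdk13 (0.27), Cdk7 (0.025 and 0.027), Cdkn2aip (0.0091 and 0.0096), Cenpb (0.057 and 0.060), Cenpt (-0.11), Kif4 (-0.015 and -0.036), Klf2 (0.18), Mcm2 (0.019 and 0.020), Plk1 (-0.040 and -0.060) and Rb1 (0.082 and 0.083). With effective-length offsets, without and with the replicate block, it turned for Ccny (0.044 and 0.051), Cdk13 (0.21), Cenpb (0.00064 and 0.00037), Cenpt (-0.17), Kif4 (-0.11), Klf2 (0.12), Plk1 (-0.11 and -0.12) and Rb1 (0.025 and 0.024). A single value stands for both fits where they round alike. With single libraries left out, the genes whose sign turned, with their ranges, were Ccnb2 (-0.39 to 0.085), Ccnf (-0.37 to 0.040), Ccnjl (-0.032 to 0.91), Ccny (-0.043 to 0.018), Cdc42ep4 (-0.12 to 0.037), Cdk13 (-0.032 to 0.0073), Cdk20 (-0.38 to 0.034), Cdk7 (-0.22 to 0.018), Cdkn2aip (-0.16 to 0.013), Cdkn2b (-0.45 to 0.34), Cdkn2d (-0.0095 to 0.16), Cenpj (-0.061 to 0.086), E2f6 (-0.070 to 0.22), Kif11 (-0.10 to 0.15), Kif5a (-0.29 to 0.97), Plk1 (-0.084 to 0.20) and Rb1 (-0.033 to 0.016).

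Depth limits the scarce members: below 5 log2 CPM, 9 of 19 intervals lay within a 2-fold change. Whether any libraries come from separate animals is not stated in the labels, so spread between animals cannot be told apart from other spread.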
